A study of Zea mays with 12 samples.

Results

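BIP2 (Zm00001d014993), an Hsp70 chaperone of the endoplasmic reticulum (ER) lumen, and ERDJ3a (Zm00001d047726), an ER co-chaperone with a J domain, were followed through the unfolded protein response (UPR) of maize roots. They are 2 of the 39498 genes in the deposited count table and were chosen by locus identifier as chaperone and partner. Roots of seedlings of the inbred line B73 were collected after 0, 6 and 12 hr in 5 µg/ml tunicamycin (TM) in DMSO. TM inhibits N-glycosylation, and misfolded proteins build up in the ER as a result. Each of 6 lysates, 2 biological replicates per time point, gave 1 ribo-seq library of ribosome-protected fragments (RPFs) and 1 RNAseq library of fragmented total RNA, 12 libraries in all. Roots at 0 hr were the only reference, and the mock-treated roots of the methods were not analysed here. TM, its DMSO vehicle and time in culture therefore cannot be told apart. The sources differ on seedling age, which the labels put lower than the methods do. The count table gives identifiers without names and the RefSeq gene table matched 0 of them, so the root label was not checked against marker genes.

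BIP binds exposed hydrophobic stretches of unfolded proteins in the ER lumen and releases them in a cycle driven by ATP. J-domain proteins of the ERdj3 type, studied mostly in mammals, hand unfolded clients to BIP and stimulate its ATPase, so that chaperone and co-chaperone act as a pair. When unfolded proteins accumulate, ER membrane sensors such as the kinase and ribonuclease IRE1 activate bZIP transcription factors, and genes for ER chaperones and folding enzymes are among their known targets.

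The primer pairs with which the study measured the same mRNAs by qRT-PCR are shown because they are the sequences the sources tie to these names. The supplement calls the second pair ERD only, and neither pair was placed on its locus here, where both genes go by locus identifier. The primers are in lower case with no base singled out, 5′ to 3′, and each is 21 bases long.
BIP2 forward: gtcggagaagatcacgatcac
BIP2 reverse: cttcaccttcttgtcctcctc
ERDJ3a forward: ggcccgtctcttcatctattc
ERDJ3a reverse: tacccgtttggagaatcttgg

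Depth was 2019128 to 9861654 counts per RNAseq library and 1667094 to 12328304 per ribo-seq library. Levels are given on a pair of scales. Depth-scaled counts (CPM) divide a gene's count by all counts of its library. Counts per 100 actin counts follow the study, whose translation efficiency model scaled libraries to actin (Zm00001d013873). Actin itself had only 59 to 445 counts in a library, a counting error of 4.74 to 13.0% that all genes of that library share. It was also uneven between the ribo-seq libraries of 0 hr, with 29.3 and 52.3 CPM in replicates 1 and 2. Mean actin at 0, 6 and 12 hr was 36.1, 34.6 and 25.6 CPM in RNAseq and 40.8, 46.4 and 38.2 CPM in ribo-seq. Where actin is lower, the values of other genes relative to it are higher. Tests used actin scaling. Values with TMM scaling, which holds the bulk of genes level within each library type, are given beside the main changes. Intervals are exact binomial 95% intervals and cover counting error only.

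BIP2 mRNA rose about as far by 6 hr as by 12 hr in CPM, and somewhat further by 12 hr relative to actin. It had 702 and 2664 RNAseq counts in the 2 replicates at 0 hr, 23044 and 8461 at 6 hr, with 18039 and 8131 at 12 hr. Per library size these were 348 and 504 CPM at 0 hr, 2337 and 2128 at 6 hr, with 2596 and 1684 at 12 hr. All 4 treated libraries lay above both 0 hr libraries, by 3.34- to 7.47-fold in CPM over the possible pairs. The share of all genes that separate in this way is not given, here or for the later separations of treated and 0 hr libraries. Per 100 actin counts there were 1190 and 1174 at 0 hr, 6348 and 6559 at 6 hr, with 8886 and 7671 at 12 hr. The duplicates of 0 hr thus differed 1.45-fold in CPM but only 1.01-fold relative to actin. BIP2 mRNA was 5.46-fold higher at 6 hr than at 0 hr (log2 2.45, SE 0.26, adjusted p = 0.000568, quasi-likelihood test of edgeR, n = 2 libraries at each time). At 12 hr it was 7.01-fold higher than at 0 hr (log2 2.81, SE 0.26). With TMM scaling the rise was 5.11-fold at 6 hr and 4.98-fold at 12 hr. The comparisons at 6 and 12 hr share the 0 hr libraries.

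ERDJ3a mRNA started at a lower count and rose by a larger factor than BIP2 in the fit over all 6 libraries. It had 99 and 159 RNAseq counts at 0 hr, 3781 and 1427 at 6 hr, with 2968 and 1257 at 12 hr. This was 49.0 and 30.1 CPM at 0 hr, 383 and 359 at 6 hr, with 427 and 260 at 12 hr, again with no overlap between treated and 0 hr libraries. The 95% intervals of the 2 libraries at 0 hr, 39.9 to 59.7 and 25.6 to 35.1 CPM, did not overlap either, so these duplicates differed by more than counting error. Per 100 actin counts the values were 168 and 70.0 at 0 hr, 2.40-fold apart, then 1042 and 1106 at 6 hr, with 1462 and 1186 at 12 hr. The rise was 9.32-fold at 6 hr (log2 3.22, SE 0.39, adjusted p = 0.00146, edgeR), and at 12 hr the log2 change was 3.52 (SE 0.40). The library of replicate 1 at 0 hr weighs on the size: leaving it out brought the rise to 15.3-fold at 6 hr and 18.9-fold at 12 hr. Leaving out replicate 2 of 0 hr in its place gave 6.40-fold and 7.89-fold for ERDJ3a, close to the 5.42-fold and 6.96-fold of BIP2 in those fits. All of these changes passed the test. Across all genes, 0.0885% of the 23721 tested were called higher in RNA at 6 hr and 0.278% at 12 hr, and both chaperone genes were called at both times. With TMM scaling and all 6 libraries the rise of ERDJ3a mRNA was 9.42-fold at 6 hr and 8.87-fold at 12 hr.

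RPFs of BIP2 followed the same course. The counts were 2000 and 3384 at 0 hr, 5300 and 19959 at 6 hr, with 10813 and 30627 at 12 hr. In CPM they were 611 and 580 at 0 hr, 3179 and 2658 at 6 hr, with 3538 and 2484 at 12 hr, so that BIP2 took 0.0611 and 0.0580% of all footprints at 0 hr and 0.354 and 0.248% at 12 hr. Every treated library exceeded every 0 hr library in CPM, by 4.06- to 6.10-fold. Scaled to 100 actin counts, RPFs stood at 2083 and 1110 at 0 hr, 6625 and 5940 at 6 hr, with 8791 and 6882 at 12 hr, and the gap between the 0 hr duplicates widened from 1.05-fold in CPM to 1.88-fold. The rise was 3.94-fold at 6 hr (log2 1.98, SE 0.41, adjusted p = 0.00134, edgeR) and 4.91-fold at 12 hr. With TMM scaling it was 4.96-fold at 6 hr (adjusted p = 0.00377) and 5.15-fold at 12 hr (adjusted p = 0.00358).

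RPFs of ERDJ3a had the larger change in relative terms. It had 181 and 301 RPF counts at 0 hr, 749 and 3945 at 6 hr, with 1650 and 5681 at 12 hr. This was 55.3 and 51.6 CPM at 0 hr, 449 and 525 at 6 hr, with 540 and 461 at 12 hr. The 2 libraries of each time point were within 1.07- to 1.17-fold of each other in CPM, while treated libraries were 8.12- to 10.5-fold above those of 0 hr. Per 100 actin counts the values were 189 and 98.7 at 0 hr, 936 and 1174 at 6 hr, with 1341 and 1277 at 12 hr. The rise was 7.41-fold at 6 hr (log2 2.89, SE 0.47, adjusted p = 1.89e-06, edgeR) and 9.19-fold at 12 hr. With TMM scaling the log2 change was 3.21 at 6 hr (adjusted p = 0.000134, edgeR) and 3.25 at 12 hr (adjusted p = 0.000117).

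Both genes were called higher in RPFs at both times, where 0.0637% of the 20414 genes tested were called higher at 6 hr and 0.137% at 12 hr. In the actin-scaled RPF fit the prior degrees of freedom were infinite, so that every gene was given the shared spread in place of its own and single p-values may be too small. The RPF call of BIP2 depended on single libraries: leaving out replicate 1 or replicate 2 of 6 hr brought its adjusted p at 6 hr to 0.465 or 0.222, and leaving out replicate 1 of 12 hr brought it to 0.0567 at 6 hr and 0.254 at 12 hr. Its log2 change in those fits stayed between 1.90 and 2.11. The RPF calls of ERDJ3a held without any one library, with adjusted p of at most 0.0396.

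**Figure D1:**
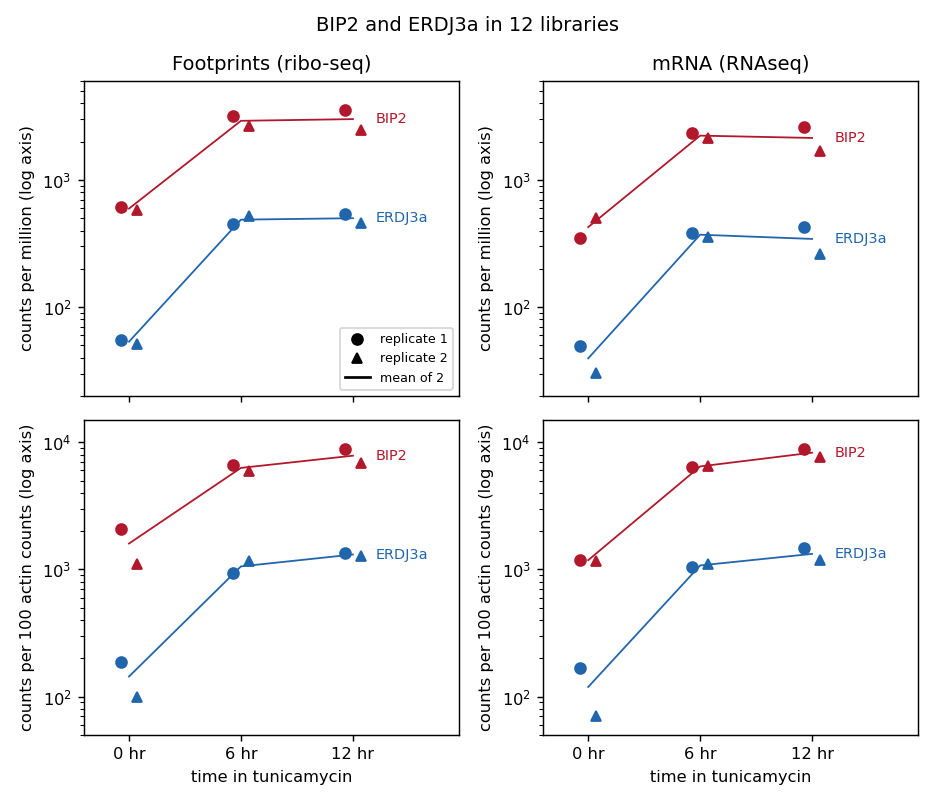
BIP2 (red) and ERDJ3a (blue) at 0, 6 and 12 hr in TM, footprints at the left and mRNA at the right, in CPM (top) and per 100 actin counts (bottom), on log axes. Each point is 1 library (circle, replicate 1; triangle, replicate 2) and lines join the means of 2: both genes lie higher at 6 and 12 hr than at 0 hr in all panels, and the 0 hr footprint duplicates lie close together in CPM but 1.88- and 1.91-fold apart relative to actin.

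Between 6 and 12 hr little further change was seen in either gene in CPM, with a small rise relative to actin. In CPM the mean at 12 hr relative to 6 hr was 0.959 for BIP2 mRNA and 1.03 for BIP2 RPFs. It was 0.926 for ERDJ3a mRNA and 1.03 for ERDJ3a RPFs. The libraries of 6 and 12 hr overlapped in CPM in all of these cases. Relative to actin they did not overlap in any of them, as both 12 hr libraries lay above both 6 hr libraries. The share of all genes that separate likewise is not given. With actin scaling the log2 change from 6 to 12 hr was 0.36 for BIP2 mRNA (SE 0.25), 0.30 for ERDJ3a mRNA (SE 0.35), 0.32 for BIP2 RPFs (SE 0.40) and 0.31 for ERDJ3a RPFs (SE 0.44), with adjusted p of 0.639 to 1.00 in edgeR. The median of all genes tested moved by 0.45 in RNA and 0.29 in RPFs in the same fits, so BIP2 and ERDJ3a differed from that median by -0.14 to 0.029. With TMM scaling the mRNA changes were -0.039 for BIP2 and -0.088 for ERDJ3a. Of the difference in mean level between 0 and 12 hr, 74.3 to 79.2% was present at 6 hr relative to actin and 96.2 to 109% in CPM. With actin scaling and the default filter, edgeR called 0 genes in RNA between 6 and 12 hr, with 1167 genes at an unadjusted p under 0.05. It called 41 genes without a filter, 144 and 148 when replicate 1 or replicate 2 of 0 hr was left out and 5 when replicate 2 of 6 hr was, and DESeq2 called 2 with the actin factors and 11 with its own. Neither BIP2 nor ERDJ3a was called from 6 to 12 hr under any of these settings. In RPFs 0.0490% of the genes were called.

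In the order of all genes by count, both stood higher at 6 and 12 hr than at 0 hr in every library. The order by raw count also reflects coding length, so each gene is compared here only with itself. In RPFs BIP2 held place 162 and 182 of the 39498 genes in the 0 hr libraries, 5 and 4 at 6 hr, with 6 and 7 at 12 hr. In RNA it held place 306 and 189 at 0 hr, 19 and 18 at 6 hr, with 18 and 30 at 12 hr. ERDJ3a held place 4221 and 4476 in RPFs at 0 hr, 272 and 206 at 6 hr, with 201 and 247 at 12 hr. Its place in RNA was 4550 and 7208 at 0 hr, 258 and 295 at 6 hr, with 224 and 439 at 12 hr.

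Ordered by the size of the change, ERDJ3a stood nearer to the top than BIP2, but the places depend on the filter on low counts. In RPFs ERDJ3a had the 17th largest log2 change of 20414 genes at 6 hr and rank 18 at 12 hr, and BIP2 had ranks 52 and 60. In RNA the ranks of ERDJ3a were 83 and 96 of 23721 genes and those of BIP2 were 165 and 197. With a minimum of 10 counts per library, ERDJ3a held rank 3 at both times in RPFs and in RNA, and BIP2 held ranks 9 and 10 of 14476 genes in RPFs and rank 7 at both times of 17220 genes in RNA. With no filter the ranks in RNA were 1540 and 1678 for ERDJ3a and 2319 and 2359 for BIP2, and those in RPFs were 882 and 928 for ERDJ3a and 1933 and 1835 for BIP2. Relative to the median of all genes, which actin scaling moved by up to 0.51, the log2 change at 12 hr was 3.21 in RPFs and 3.02 in RNA for ERDJ3a, and 2.30 in RPFs and 2.30 in RNA for BIP2.

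**Figure D2:**
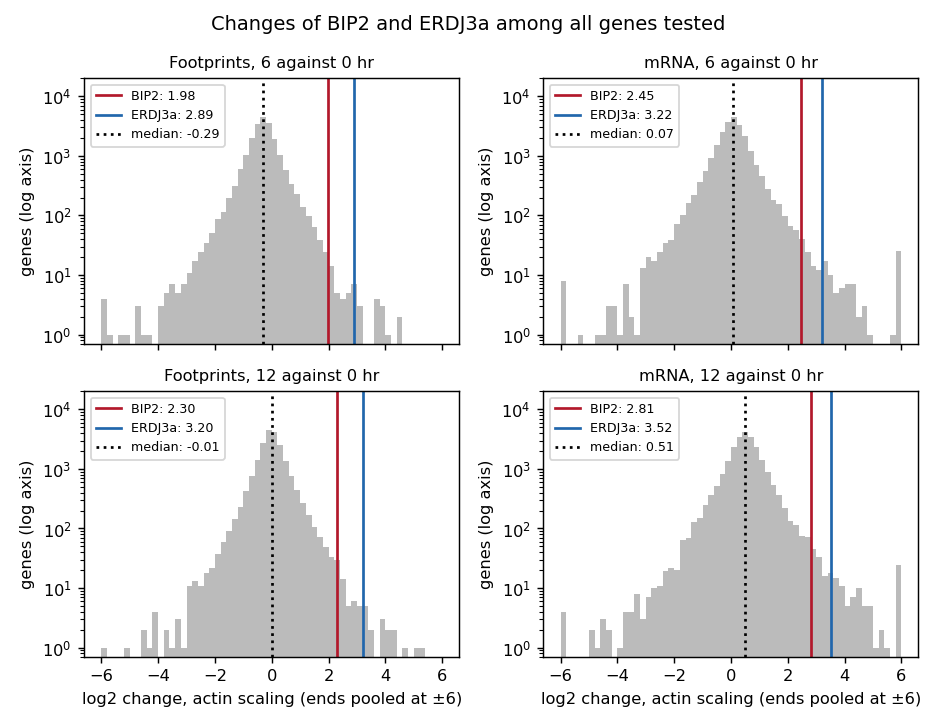
Numbers of genes (log axis) by log2 change with actin scaling in bins of 0.2, for footprints (left) and mRNA (right), 6 against 0 hr (top) and 12 against 0 hr (bottom). Lines mark BIP2 (red), ERDJ3a (blue) and the median of all genes (dotted): both genes lie in the far right tail of every panel, ERDJ3a further out.

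Translation efficiency, the RPF level over the RNA level of the same lysate, asks whether ribosome occupancy kept pace with mRNA. For BIP2 with actin scaling the ratio was 1.75 and 0.945 in the 2 lysates of 0 hr, 1.04 and 0.906 at 6 hr, with 0.989 and 0.897 at 12 hr. The lysate of 0 hr replicate 1 stood apart, while that of replicate 2 lay among the treated lysates. For ERDJ3a the ratio was 1.12 and 1.41 at 0 hr, 0.899 and 1.06 at 6 hr, with 0.918 and 1.08 at 12 hr. Here both 0 hr lysates lay above all 4 treated lysates, and the lowest 0 hr lysate was close to the highest treated one. The share of all genes whose lysates separate in this way is not given. With actin scaling 23.5% of the 20055 genes tested had a log2 change in this ratio above 0 at 6 hr and 18.5% at 12 hr. On that scale a lower ratio after 0 hr was thus common among all genes. With TMM scaling it was not, as 49.6% of the genes lay above 0 at 6 hr and 51.4% at 12 hr.

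With library totals in place of actin, the ratio of BIP2 was 1.76 and 1.15 at 0 hr, 1.36 and 1.25 at 6 hr, with 1.36 and 1.47 at 12 hr. That of ERDJ3a was 1.13 and 1.72 at 0 hr, 1.17 and 1.46 at 6 hr, with 1.26 and 1.77 at 12 hr. On this scale the treated lysates of both genes lay between or close to the 0 hr lysates, and the separation of ERDJ3a was not seen.

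The log2 change in translation efficiency with actin scaling was -0.40 for BIP2 (SE 0.33) and -0.37 for ERDJ3a (SE 0.29) at 6 hr, and -0.44 (SE 0.33) and -0.35 (SE 0.29) at 12 hr. Adjusted p were 0.729, 0.710, 0.496 and 0.538 from edgeR's quasi-likelihood test over 20055 genes. The median of all genes was -0.32 at 6 hr and -0.45 at 12 hr, and relative to it BIP2 and ERDJ3a were at -0.076 and -0.051 at 6 hr and at 0.0076 and 0.10 at 12 hr. With TMM scaling the changes were -0.070 (SE 0.19) and -0.061 (SE 0.25) at 6 hr and 0.030 (SE 0.19) and 0.11 (SE 0.25) at 12 hr, so the direction at 12 hr turned with the scaling in both genes. For BIP2 the 2 lysates of 0 hr pulled apart: leaving out replicate 2 of 0 hr put its change at -0.85 at 6 hr and -0.89 at 12 hr, and leaving out replicate 1 of 0 hr put it at 0.040 and -0.0050. The edgeR test with the default filter called 0% of the genes at either time. At an unadjusted p under 0.05 it had 1511 genes at 6 hr and 3031 at 12 hr, and DESeq2 with the actin factors called 1 and 6 genes, with its own 0. Without a filter edgeR called 1 gene at 6 hr and 40 at 12 hr, and leaving out replicate 1 of 12 hr gave 1 and 9.

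The place of the ratio among other genes of the same lysate depends on no scaling. The set of genes it is compared with does depend on the depth of both libraries and differs between lysates. Over genes with at least 50 counts in both libraries, 6723 to 13210 per lysate, BIP2 lay at the 86.9th and 59.3rd percentile in the lysates of 0 hr, the 61.0th and 68.1st at 6 hr and the 67.4th and 80.2nd at 12 hr. ERDJ3a lay at the 54.3rd and 87.2nd percentile at 0 hr, the 47.6th and 78.9th at 6 hr and the 60.8th and 90.8th at 12 hr. Both genes lay above the median gene in all lysates except ERDJ3a in 6 hr replicate 1. Over genes with at least 200 counts, ERDJ3a in 12 hr replicate 1, at the 45.6th percentile, and BIP2 in 6 hr replicate 1, at the 44.8th, lay below the median gene too. For neither gene did the time points separate. The widest gap between duplicates was 32.9 percentile points and the largest difference between means of time points was 12.5. At 0 hr the lysate with the higher place was replicate 1 for BIP2 and replicate 2 for ERDJ3a.

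**Figure D3:**
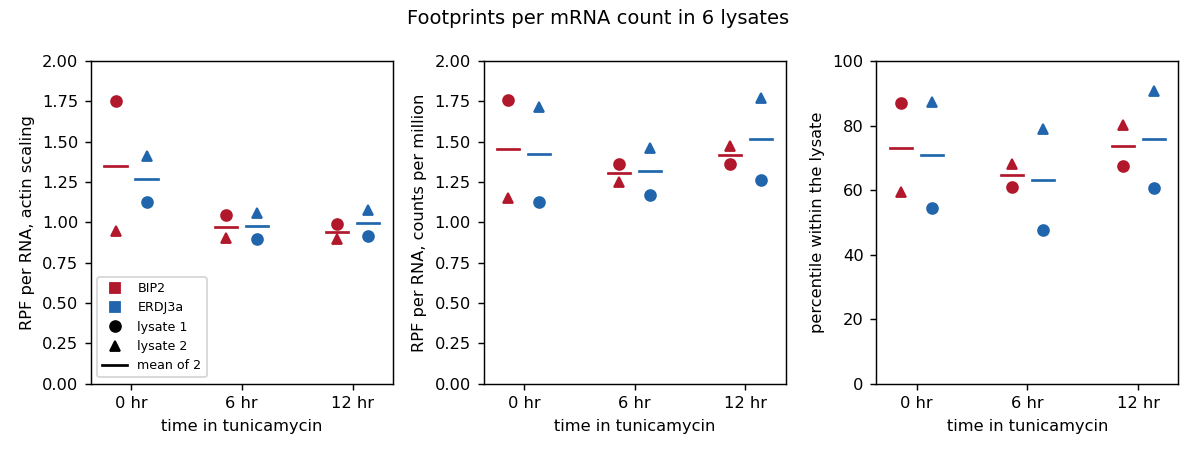
RPF level over RNA level of BIP2 (red) and ERDJ3a (blue) in 6 lysates, with actin scaling (left) and in CPM (middle), and the percentile of the ratio among genes of the same lysate (right). Circles and triangles are the lysates of replicates 1 and 2 and bars are means of 2: the treated lysates lie at 0.897 to 1.08 with actin scaling, and the time points overlap in the percentile.

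The ratio of the partners to each other, ERDJ3a counts per 100 BIP2 counts of the same library, needs no scaling either. It is a ratio of counts and not of molecules, since coding lengths differ. Near-identical BIP copies may also share counts with BIP2, as described below, and this was not tested. In RPFs it was 9.05 (95% interval 7.73 to 10.5) and 8.89 (7.88 to 10.0) at 0 hr, 14.1 (13.1 to 15.3) and 19.8 (19.1 to 20.5) at 6 hr, with 15.3 (14.5 to 16.1) and 18.5 (18.0 to 19.1) at 12 hr. The 0 hr duplicates were within counting error of each other, and all 4 treated libraries lay above them. The treated duplicates differed from each other beyond counting error, replicate 2 being higher at both times.

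In RNA the ratio was 14.1 (11.3 to 17.4) and 5.97 (5.05 to 7.01) at 0 hr, 16.4 (15.8 to 17.0) and 16.9 (15.9 to 17.8) at 6 hr, with 16.5 (15.8 to 17.1) and 15.5 (14.6 to 16.4) at 12 hr. The treated libraries agreed closely, from 15.5 to 16.9, whereas the 0 hr libraries lay 2.36-fold apart. The point values of all treated libraries were above those of 0 hr, but the interval of 0 hr replicate 1 overlapped those of all 4. An exact permutation test of 2 against 2 libraries cannot go below a two-sided p of 0.333, and none is given for the ratio. In the fits, the log2 change of ERDJ3a exceeded that of BIP2 by 0.91 in RPFs and 0.77 in RNA at 6 hr, by 0.90 and 0.71 at 12 hr, and by -0.0088 and -0.057 from 6 to 12 hr. In RNA this excess rested on the 0 hr duplicates: it was 1.48 at 6 hr and 1.42 at 12 hr when replicate 1 of 0 hr was left out, but 0.24 and 0.18 when replicate 2 was.

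**Figure D4:**
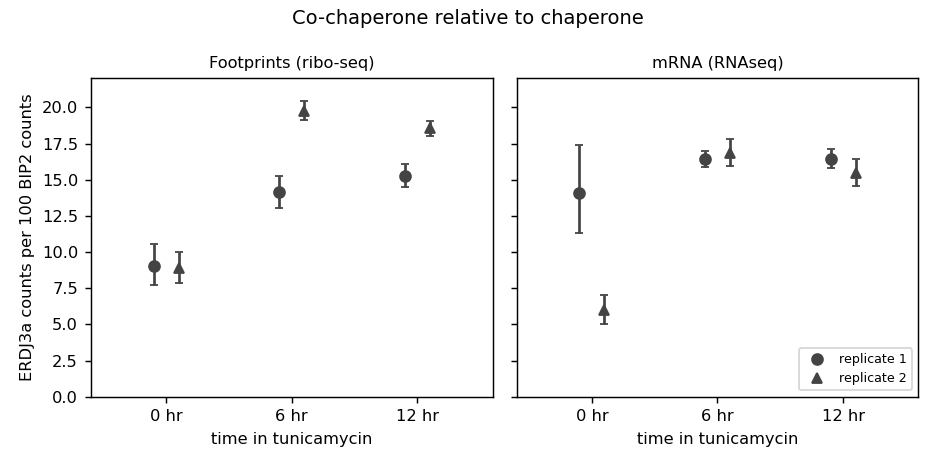
ERDJ3a counts per 100 BIP2 counts in each ribo-seq (left) and RNAseq (right) library at 0, 6 and 12 hr, with exact binomial 95% intervals for counting error (circle, replicate 1; triangle, replicate 2). The footprint ratio lies at 8.89 and 9.05 at 0 hr and at 14.1 to 19.8 later, and 0 hr replicate 2 of the RNAseq libraries stands lowest at 5.97.

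The genes with the most similar course were looked for over 12415 genes whose mean count was 50 or more in both library types, by Pearson's r of log2 (CPM + 0.5) with TMM scaling, centred within each library type, over the 12 libraries. The points share lysates and 3 time points, so r is a description only. BIP2 and ERDJ3a had r = 0.976. ERDJ3a came 18th in likeness to BIP2 and BIP2 came 7th in likeness to ERDJ3a. First for BIP2 was Zm00001d054043 (r = 0.998), whose counts were 0.792 to 0.979 times those of BIP2 in every library, for example 26325 RPF counts where BIP2 had 30627. The files give no name for it. Reads that fitted several genes equally well were kept once by the authors' mapping, so near-identical BIP copies may share counts, and this was not tested. First for ERDJ3a was Zm00001d021120 (r = 0.994), also without a name, whose counts were 0.525 to 1.60 times those of ERDJ3a.

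Other UPR genes with a full identifier are PDI-2 (Zm00001d005866), a protein disulfide isomerase, and Derlin 1 (Zm00001d010368), which serves the removal of misfolded proteins from the ER. In RNA 1 of these 2, PDI-2, was called higher at 6 hr and both at 12 hr, against 0.0885 and 0.278% of the 23721 genes tested. The log2 changes at 6 hr were 2.30 for PDI-2 and 1.94 for Derlin 1. In RPFs neither was called with actin scaling, at 1.37 and 1.17 at 6 hr and 1.61 and 1.52 at 12 hr, below the 1.98 to 3.20 of BIP2 and ERDJ3a. With TMM scaling PDI-2 passed in RPFs at 6 hr (adjusted p = 0.0324, edgeR) and 12 hr (adjusted p = 0.0166), where 13 and 29 of the 20414 genes were called higher. Their r with BIP2 was 0.985 and 0.929.

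**Figure D5:**
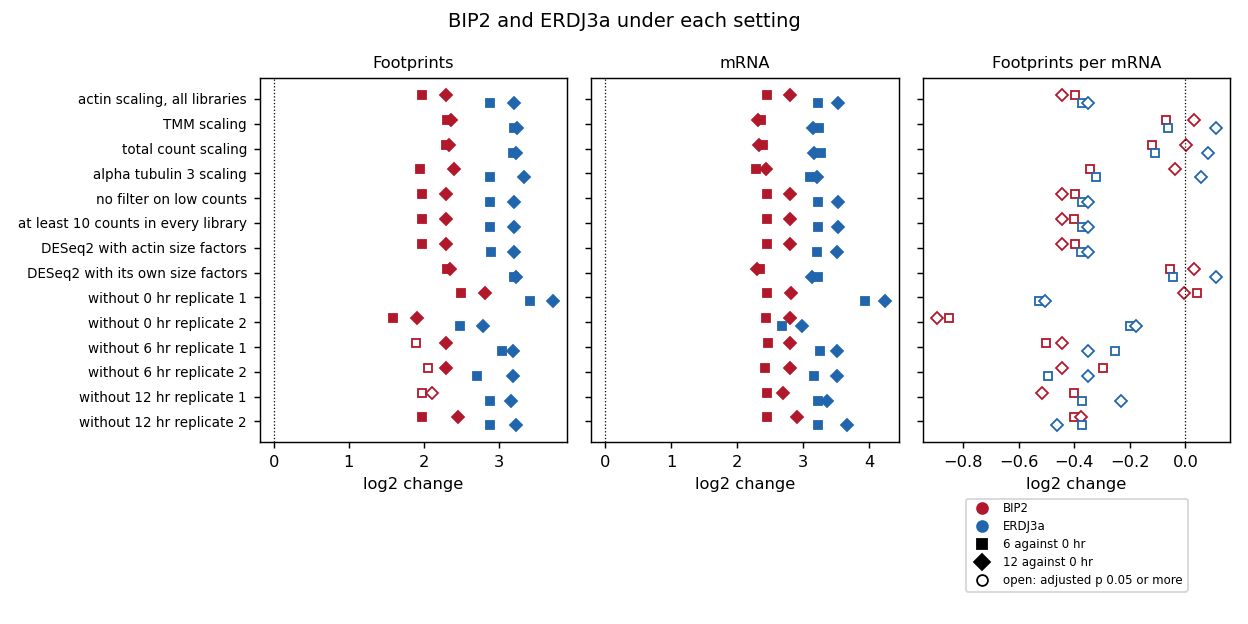
Log2 changes of BIP2 (red) and ERDJ3a (blue) at 6 hr (squares) and 12 hr (diamonds) against 0 hr, in footprints, mRNA and footprints per mRNA, under 14 settings other than the replicate block; filled symbols passed an adjusted p of 0.05. All mRNA symbols are filled, 4 footprint symbols of BIP2 are open, and the symbols of footprints per mRNA are all open and lie on both sides of 0.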

How the data were processed

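Per the paper's methods and the submitters' processing notes, the authors trimmed reads with cutadapt 1.16, kept those of fitting length, removed reads of noncoding RNA and used Bowtie 1.2 to map the remainder onto annotated coding sequences (B73 RefGen_v4). The deposited values are raw counts per gene from SAMtools, without normalization. Removal of PCR duplicates is not stated, and ribo-seq libraries were resequenced. No column of values was left unused (0).

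Time points were compared by the quasi-likelihood test of edgeR 4.0.16 under R 4.3.3, over 6 RNAseq libraries, 6 ribo-seq libraries, and all 12 with the lysate as a term for translation efficiency. Libraries were scaled to equal actin counts, genes passed filterByExpr with default settings, and Benjamini-Hochberg adjustment ran over all genes tested with a threshold of 0.05. The SE is the log2 change divided by the square root of F. Fitted changes use a prior count of 0.125. Tests were run on simulated data first. Alternatives were TMM, total count and, added after seeing the data, alpha tubulin 3 scaling, other filters (none, or at least 10 counts in every library), DESeq2 1.42.0, the replicate block, and leaving out single libraries or lysates.

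RNAseq and ribo-seq libraries of 1 lysate were paired as the methods describe. Across 13800 genes, the RPF and RNA differences between the duplicates of a time point correlated at 0.406, 0.0154 and 0.463 for 0, 6 and 12 hr. The depths given with the results limit precision, chiefly at the 59 to 445 counts of actin. The genes, lists and tests were chosen with earlier results of these data known. The rule for named genes was both chaperone genes, the UPR genes and standards with an identifier in the paper, and the 1 gene most like each. A list of further ER folding genes and root and leaf markers could not be used for want of names.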

Additional observations from a re-analysis of the deposited data

How the results depend on the processing

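The mRNA rises of BIP2 and ERDJ3a at 6 and 12 hr passed the test under all 14 alternatives, with log2 changes of 2.28 to 2.91 for BIP2 and 2.68 to 4.24 for ERDJ3a. The RPF rises of ERDJ3a did so too (2.49 to 3.73). Those of BIP2 ranged from 1.59 to 2.50 at 6 hr and 1.91 to 2.82 at 12 hr when single libraries were left out, passed under 11 of 14 alternatives at 6 hr and 13 of 14 at 12 hr, and missed the threshold only without single libraries, at 1.90, 2.05 and 1.98 at 6 hr and 2.11 at 12 hr. The cause was not tested. Scaling turned the small changes. From 6 to 12 hr, BIP2 mRNA was at -0.039 with TMM, -0.061 with total counts and -0.038 with the size factors DESeq2 computes, and ERDJ3a mRNA at -0.088, -0.11 and -0.087. In translation efficiency at 12 against 0 hr, BIP2 was at 0.030, 0.0010 and 0.030 under the same 3 settings and ERDJ3a at 0.11, 0.081 and 0.11, with 0.055 under alpha tubulin 3. At 12 against 6 hr BIP2 was at 0.10, 0.12 and 0.086, with 0.31 under alpha tubulin 3. Leaving out single lysates moved translation efficiency over -0.85 to 0.040 at 6 against 0 hr for BIP2, and at 12 against 6 hr over -0.15 to 0.057 for BIP2 and -0.095 to 0.14 for ERDJ3a. No result for translation efficiency passed the test under any alternative.

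Requiring at least 200 counts lowered the mean percentile of the ratio to 52.6 at 6 hr and 64.5 at 12 hr for BIP2 and to 51.8 and 67.4 for ERDJ3a, and left no value for ERDJ3a at 0 hr. The number of genes called changed by over 1.5 times in 65 of 126 comparisons with alternatives. In RNA at 12 hr against 0 hr it was 69 genes with actin scaling, 76 with TMM, 3257 without 0 hr replicate 1 and 340 without a filter. The replicate block (the replicate number as a term) gave log2 changes at 12 hr of 2.81 and 2.34 for BIP2 in RNA and RPFs and 3.57 and 3.23 for ERDJ3a, and without the lysate block translation efficiency was at -0.51 and -0.31. It changed no call of either gene, with 26 genes called in RNA at 12 hr. Duplicate differences of 0 and 6 hr, 0 and 12 hr, and 6 and 12 hr correlated at -0.098, -0.29 and 0.092 in RNA. In RPFs the same pairs of time points gave 0.31, 0.0049 and 0.40. These values do not settle whether replicate numbers pair the time points. Depth limits ERDJ3a most at 0 hr, with 99 and 159 RNAseq counts.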
